A study of Mus musculus with 2 samples.

Results

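The regions bound by Smad2/3 around 5 genes of epithelial identity and epithelial splicing, Esrp1, Esrp2, Epcam, Grhl2 and Tjp1, are described here from a list of 5847 regions. Members were the regions whose centre fell in a fixed window of the mouse genome build mm9 named after each gene, and 6 regions of the 5847 met this rule. The windows lay on chromosome 4 from 11.15 to 11.42 Mb (Esrp1), chromosome 8 from 108.55 to 108.77 Mb (Esrp2), chromosome 17 from 87.93 to 88.16 Mb (Epcam), chromosome 15 from 37.06 to 37.40 Mb (Grhl2) and chromosome 7 from 72.34 to 72.62 Mb (Tjp1). The list came from 1 chromatin immunoprecipitation and sequencing (ChIP-seq) library of NMuMG cells, an epithelial line of the mouse mammary gland, precipitated with an antibody against Smad2 and Smad3. Both samples of the study, this library and 1 input library, came from cells exposed for 1.5 h to TGF-beta3 (1 ng/ml), with serum at 10% present, and per the protocols the line was grown with 10 ug/ml insulin. With no untreated cells and no replicate, the list gives occupancy after treatment, holds no change with treatment and allows no test. It holds no read counts either, so the depth is unknown, and a stretch without a region cannot be read as unbound. RNA was not measured, so the epithelial state of these cells could not be set against marker genes.

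In the TGF-beta pathway, the activated receptors phosphorylate Smad2 and Smad3, which join Smad4, enter the nucleus and bind DNA together with other transcription factors. In mammary epithelial cells this signal is known for driving the epithelial-mesenchymal transition, in which cells lose junctions and epithelial splice forms. Esrp1 and Esrp2 encode RNA-binding proteins that promote the epithelial splice forms of transcripts such as Fgfr2 and Cd44. Grhl2 encodes a grainyhead transcription factor that keeps epithelial genes active and is repressed by Zeb1. Epcam encodes a transmembrane adhesion protein of epithelial cells, and Tjp1 encodes ZO-1, a scaffold of tight junctions.

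Smad2/3 regions were present in 4 of the 5 windows. The Epcam window held 3 regions, the windows of Esrp2, Grhl2 and Tjp1 held 1 each, and the Esrp1 window held 0. When the autosomes were divided end to end into windows of the same 5 lengths, 30.7% of all windows held a region. The 6 regions in 1.34 Mb came to 4.48 per Mb, with an exact Poisson 95% interval of 1.64 to 9.75 that covers counting error only and treats neighbouring regions as independent. The autosomes carried 2.43 regions per Mb between the first and last region of each chromosome, a density inside that interval. At this density the windows would hold 3.26 regions. Without the Epcam window the density was 2.70 per Mb. The equal-length windows were not matched for gene content, and the part of gene content in these shares was not tested.

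**Figure D1:**
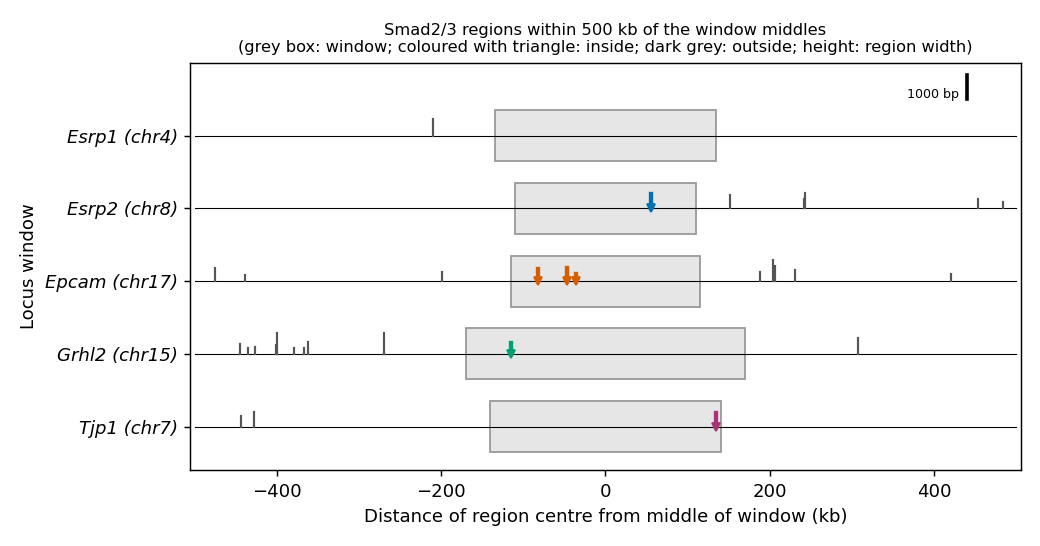
Positions of Smad2/3 regions by distance of their centre from the middle of each window (kb), 1 row per locus, with the window as a grey box, members coloured with a triangle, regions outside in dark grey, and line height proportional to region width (bp, scale bar 1000 bp). The Epcam box holds 3 regions and the Esrp1 box 0, and the Tjp1 region sits at the edge of its box.

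**Figure D2:**
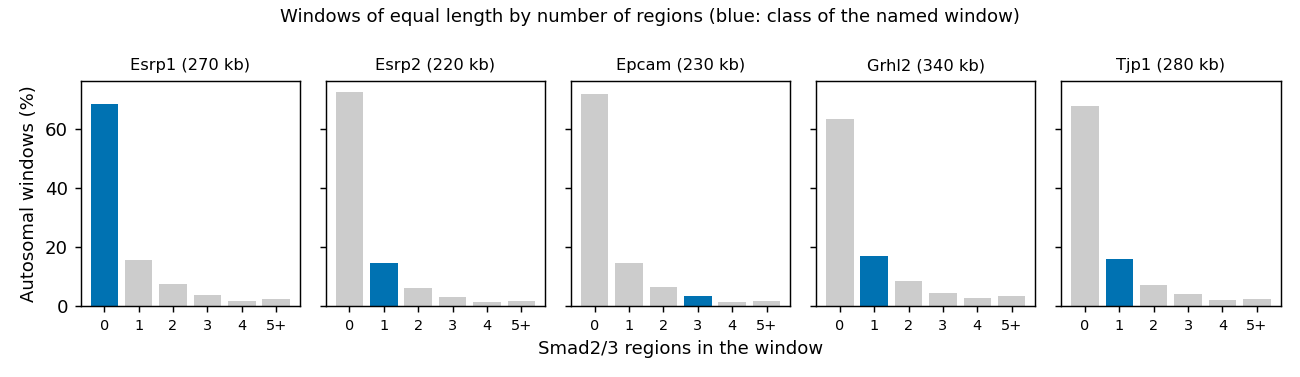
Share of autosomal windows (%) by the number of Smad2/3 regions they hold, in a panel for each window length, with the class of the named window in blue. Windows with 0 regions are the most frequent class at each length, Esrp1 falls in that class, and Epcam falls in the class with 3 regions.

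Promoter sequences from RefSeq (GRCm38.p6, 250 bases before to 50 after a transcript start) were matched for 2 of the 5 genes, Epcam and Tjp1. Both are shown, as the only 2 members matched in the table, to give the letters searched for motifs. The entries are Epcam at chr17:87635729-87636028 on the plus strand and Tjp1 at chr7:65371195-65371494 on the minus strand. These positions belong to another build than the regions and cannot be set against them, so whether a Smad2/3 region covers either promoter is not given here. Capitals mark every match, on either strand, to CAGAC, GTCTAGAC and GGCGC (SMAD motifs), TGANTCA (AP-1), CAGGTG (the E-box of ZEB and Snail proteins) and AACCNGGTT (grainyhead proteins).
Epcam: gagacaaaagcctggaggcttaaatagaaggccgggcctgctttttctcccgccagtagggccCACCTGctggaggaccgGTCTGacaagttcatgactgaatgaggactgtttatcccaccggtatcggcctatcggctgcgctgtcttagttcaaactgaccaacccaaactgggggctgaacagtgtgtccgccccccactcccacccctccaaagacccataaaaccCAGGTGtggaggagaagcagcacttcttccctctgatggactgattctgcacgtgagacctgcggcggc
Tjp1: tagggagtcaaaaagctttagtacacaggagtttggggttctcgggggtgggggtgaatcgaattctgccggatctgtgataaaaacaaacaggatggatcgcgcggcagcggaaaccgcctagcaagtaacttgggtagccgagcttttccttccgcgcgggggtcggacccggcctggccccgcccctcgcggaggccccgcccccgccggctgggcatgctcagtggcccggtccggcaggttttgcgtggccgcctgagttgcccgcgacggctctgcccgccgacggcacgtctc
The Epcam promoter held 1 match to CAGAC, read on the opposite strand as GTCTG at bases 81 to 85 counted from the 5′ end. It held 2 matches to CAGGTG, as CACCTG at bases 64 to 69 and as CAGGTG at bases 232 to 237, and no matches overlapped. CAGAC was found in 49.6% of the 32851 promoters of the table and CAGGTG in 20.2%. The Tjp1 promoter held 0 matches to the 6 motifs. GGCGC was found in 36.9% of all promoters, TGANTCA in 7.81%, AACCNGGTT in 0.271% and GTCTAGAC in 0.213%, and neither of these 2 promoters held any of them. A match describes letters and is not a binding site, and the absence of a match says only that these letters are not in the window searched.

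Of the windows of the splicing regulators, that of Esrp1 held 0 regions and that of Esrp2 held 1. A window of 270 kb, as long as that of Esrp1, held at least 1 region in 31.5% of cases over the autosomes and in 28.3% of cases on chromosome 4. The Esrp1 window thus belongs to the more frequent class of windows without a region. The stretch around it ran from a region ending at 11075249 to one starting at 11944401, a distance of 869.7 kb between centres. Of the 5755 distances between neighbouring regions on the autosomes, 13.4% were at least as long, but such stretches made up 66.3% of the length between regions, so most of the autosomes lay in stretches of this length. The nearest region below the window was 699 bp wide, number 560 in the list and centred 75.1 kb outside. The nearest above was 299 bp wide, number 3171 and centred 524.5 kb outside. In the gene order of the RefSeq table, used for names only, Esrp1 stands between Dpy19l4 and Virma.

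The Esrp2 window of 220 kb held a region on chromosome 8 from 108715451 to 108716049. It was 599 bp wide, the widest of the 6 members, and number 2118 in the list. Windows of this length held at least 1 region in 27.4% of cases over the autosomes and in 25.9% on chromosome 8. The region lay 54.3 kb inside the upper limit of the window. Below it, no region was listed for 1005 kb, between centres. Above it, a region of 549 bp with number 1024 followed at 108811301 to 108811849, centred 95.8 kb away and 41.6 kb outside the window. The Esrp2 member was therefore the lowest of a series of regions that went on above the window, with 5 more regions within 500 kb of the window middle, all above it. The earliest of these in the list, number 177, was 649 bp wide and lay at 108902151 to 108902799. In gene order Esrp2 stands between Nfatc3 and Pla2g15, so a region in the window may lie nearer to another gene than to Esrp2.

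The Epcam window of 230 kb was the only one of the 5 with more than 1 region. At least 3 regions were found in 6.85% of autosomal windows of this length, and in 26 of 382 (6.81%) on chromosome 17. At least 1 was found in 28.1% over the autosomes. The first region lay at 87962151 to 87962649, was 499 bp wide and had number 2651. The second lay at 87997701 to 87998249, was 549 bp wide and had number 2155. The third lay at 88009051 to 88009349, was 299 bp wide, the narrowest of the 6 members, and had number 2777. All 3 thus stood in the lower part of the window, 32.4 to 79.2 kb from its lower limit, and none in the 150.8 kb above the third.

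The 3 Epcam regions were separated by 35.6 kb and 11.2 kb between centres, and spanned 46.8 kb. Of 5736 runs of 3 neighbouring regions on the autosomes, 15.3% were as short or shorter, and the median run measured 369.0 kb. A run held in a window of 230 kb cannot be longer than the window, so a length below this median was fixed by the rule. Runs inside windows of equal length were not compared, so these values are not read as tight spacing. The second and the third region lay within 12.5 kb of each other, the distance used for calling regions close, and the first did not. Together they covered 1347 bp, or 0.586% of the window, against 0.0971% of the autosomal spans. This coverage follows from the count of 3 and the widths and is not a further trait. Other windows with 3 regions were not compared for coverage. The nearest region below the window was centred 83.9 kb outside it, was 399 bp wide and had number 2469. The nearest above was centred 73.5 kb outside, was also 399 bp wide and had number 2678. A further region above, at 88250701 to 88251349, was number 169 and so stood earlier in the list than all 3 members.

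The Grhl2 window of 340 kb held 1 region, on chromosome 15 at 37114251 to 37114699, which was 449 bp wide and number 2428 in the list. Windows of this length held at least 1 region in 36.7% of cases over the autosomes and in 42.7% on chromosome 15, the densest of the 5 chromosomes with 3.04 regions per Mb. The region lay 54.5 kb inside the lower limit, and the 422.9 kb from its centre to the next held no region. Regions were frequent on both sides of the window, with 14 in the 1 Mb below and 9 in the 1 Mb above. These 23 regions came to 11.5 per Mb, against 2.94 per Mb inside the window. Of the 1175 autosomal windows of 2 Mb, 0.170% (2 windows) held at least as many, and the median was 4. The flanks were looked at after the list had been seen, and they form 2 separate stretches of 1 Mb, unlike the windows of 2 Mb beside them. The nearest region below the window was 849 bp wide with number 1317, and the nearest above, at 37537051 to 37537699, was 649 bp wide with number 159. In gene order Grhl2 stands between LOC115488529 and Ncald. The region, in the lower part of the window, may lie nearer to another gene than to Grhl2.

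The Tjp1 window of 280 kb held the member that came earliest in the list, number 285. This region lay on chromosome 7 at 72614501 to 72615049 and was 549 bp wide. Windows of this length held at least 1 region in 32.3% of cases over the autosomes and in 28.0% on chromosome 7. The region stood 5.23 kb inside the upper limit, so its membership rests on where that limit was set. It was also the most isolated of the 6, with its nearest region 562.7 kb below and the next above 839.5 kb away. Of all regions in the list, 94.1% had a nearer neighbour. No other region lay inside the window, and 2 lay within 500 kb of its middle, both below, with numbers 564 and 3433. In gene order Tjp1 stands between Nsmce3 and Tarsl2, so this region too may lie nearer to another gene than to Tjp1.

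The flanks of the windows also differed among the loci. In the 1 Mb on each side together, 2 regions were listed around Esrp1, 10 around Tjp1, 12 around Esrp2, 13 around Epcam and 23 around Grhl2. At least as many were held by 72.6% of autosomal windows of 2 Mb for Esrp1, 15.5% for Tjp1, 9.70% for Esrp2 and 7.23% for Epcam. Epcam was the only locus with a higher density inside its window (13.0 per Mb) than in its flanks (6.5 per Mb). For Esrp2 the values were 4.55 and 6.0 per Mb, and for Tjp1 3.57 and 5.0 per Mb. Around Esrp1 the flanks held 1.0 per Mb and the window 0. The windows of Esrp2 and Tjp1 held 1 region each, and 1 more would have put them above their flanks.

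Most members were wider than the typical region of the list. Their widths ran from 299 to 599 bp with a median of 524 bp, against a median of 349 bp (interquartile range 249 to 499 bp) over the list. Of the 6, 5 were wider than the list median, as were 44.4% of all regions. The widest, at Esrp2, was wider than 83.8% of the list, the second Epcam region and the Tjp1 region than 79.0%, the first Epcam region than 72.6% and the Grhl2 region than 64.6%. The third Epcam region, the exception, was wider than 31.5% of the list. The widest region of the whole list measured 1799 bp.

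All 6 members had numbers up to 2923, as had 50.0% of the regions by construction. Apart from the Tjp1 region, 5 members had numbers from 2118 to 2777, a stretch of 660 numbers or 11.3% of the list. The limits of this stretch are the members' own numbers, with the Tjp1 region set aside after the numbers were seen. It therefore holds all 5 by construction and is no background share, and 3 of them come from the Epcam window. Nothing in the sources says that the numbers rank the regions, so an early number is not read as stronger binding. The 100 regions nearest in number to the Tjp1 region had a median width of 599 bp, against 349 bp for those nearest to each other member, so each member was also set beside its 100 neighbours in the list. Among these, the Esrp2 region was wider than 88 and narrower than 8, and the second Epcam region was wider than 80 and narrower than 17. The first Epcam region was wider than 70 and narrower than 17, and the Grhl2 region wider than 66 and narrower than 26. The third Epcam region was wider than 31 and narrower than 55. The Tjp1 region, although as wide as the second Epcam region, was wider than 34 of its 100 neighbours in the list and narrower than 53. It was thus wide for the whole list and narrower than most regions with similar numbers.

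**Figure D3:**
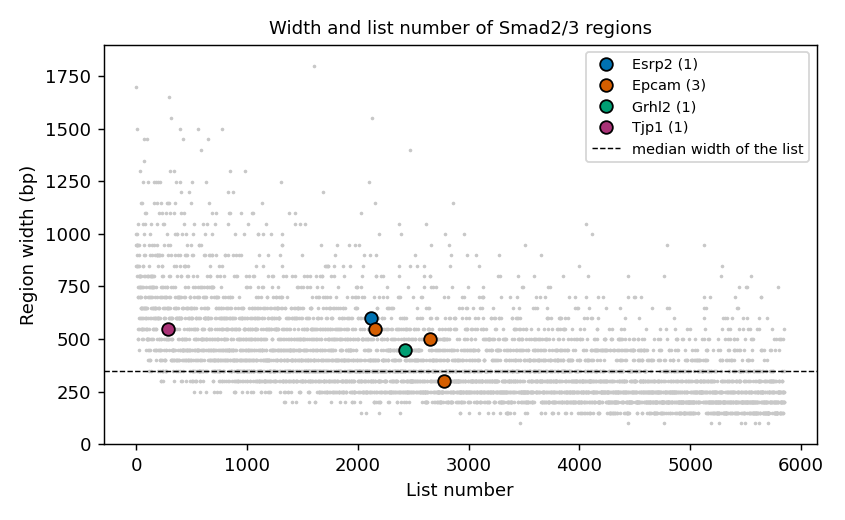
Width (bp) against list number for all 5847 Smad2/3 regions in grey, with the 6 members coloured by locus and the median width of the list, 349 bp, as a dashed line. The members lie between 299 and 599 bp, 5 of them above the line, and the Tjp1 region stands apart at number 285.

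The spacing of the members covered a wide range, from 11.2 kb to the nearest region at Epcam to 562.7 kb at Tjp1. Their median distance was 65.7 kb, against 27.5 kb (interquartile range 4.95 to 116.0 kb) over the list. Of the 6, 2 had a region within 12.5 kb, as did 37.1% of the list, and both were the Epcam pair, which are each other's nearest region. The nearest region was 95.8 kb from the Esrp2 member and 153.7 kb from the Grhl2 member, and 28.4% and 20.5% of all regions, respectively, had a larger distance. For the 3 members outside the Epcam window the median distance was 153.7 kb. No member was part of a cluster of 3 or more regions linked by 12.5 kb. The share of the whole list in such clusters is not given here, so whether this is unusual cannot be told.

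**Figure D4:**
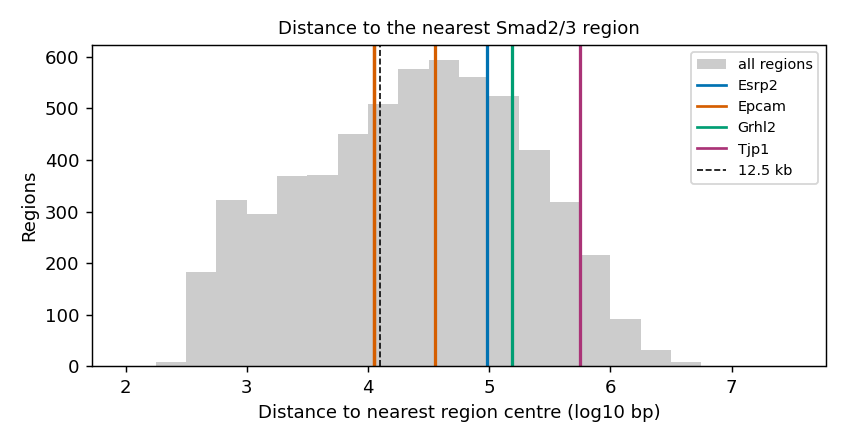
Distribution of the distance from each Smad2/3 region to its nearest region (log10 bp) over the list in grey, with vertical lines for the members by locus and a dashed line at 12.5 kb. The lines of the second and the third Epcam region coincide left of the dashed line, and the Tjp1 line is the farthest right.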

How the data were processed

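There were 2 samples, the anti-Smad2/3 library and its input, and their descriptions gave the groups. The submitters' processing notes name Bowtie2 and build mm9. The name of the deposited list holds abbreviations that may point to the caller and a threshold, but no label spells them out, and whether regions were called against the input is not given in the sources used here. Each line of the deposited list gives chromosome, start, end and a running number, and the score deposited by the authors was 1000 throughout. Positions were read as BED and are printed counted from 1. Starts lie on a grid of 50 bp, so widths move in such steps.

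Regions were assigned to windows by their centre, and distances are between centres. The background was every autosomal window of equal length, laid end to end from the first region of each chromosome, unmappable stretches included. No annotation or sequence of mm9 was used, so the place of a gene in its window, the feature under a region and the sequence of a region are not analysed here. Gene order and promoters came from RefSeq tables of GRCm38.p6. Counting was tested on simulated data, where the planted regions were recovered in 20 of 20 simulations. The windows were emptied first and no region was planted close to a window limit, so such cases were not tried. The genes, windows and lists were chosen with earlier results of these data known. The design rule named all 5 loci with all their regions, the nearest region on each side and the adjacent genes, which are not reported here for Epcam. Comparisons with flanks, list neighbours, runs of 3 regions, nearby early-listed regions and the stretch of numbers without Tjp1 were added after seeing the list. Python 3.11.15, numpy 2.4.6, pandas 2.3.3 and scipy 1.17.1 were used.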

Additional observations from a re-analysis of the deposited data

How the results depend on the processing

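Widening each window by 50 kb on each side gave 2 regions for Esrp2, and narrowing it by 50 kb gave 0 for Tjp1 and 2 for Epcam. The share of equal-length windows with a region, 30.7%, was 20.9% with only regions at or above the median width of the list, 19.6% with only list numbers up to 2923 and 29.3% with chromosome X included. Of the 59 recomputed values, 54 moved by no more than 1.5 times or, for that share, stayed within its binomial interval. The Epcam count, from 3 to 2, and the total, from 6 to 4, were among the 54 but sat exactly on that limit. The binomial interval treats windows as independent, although the same autosomes were laid out at 5 lengths. It is therefore too narrow and does not measure the error of the share. The total of 6 ranged from 4 with narrowed windows to 7 with widened ones, and windows with a region numbered 3 when narrowed and 4 under each other setting. The Esrp1 window held 0 regions under all settings run, but this outcome was fixed beforehand. Its nearest region was centred 75.1 kb outside, beyond the 50 kb of widening, and the other settings could not bring a region in. The values of Esrp1 are counted among the 54 and say nothing on stability. For the other windows, several settings were fixed beforehand as well. Members had numbers up to 2777 and lay at least 11.2 kb from any region, and outside regions were centred at least 41.6 kb from a window. Keeping numbers up to 2923, merging within 500 bp and counting any overlap thus could not change the members. Those values are also counted among the 54. No paired analysis was possible because the list comes from a single library, so no replicate could be left out either. With 6 regions and no depth, differences of 1 region between loci carry no measure of error.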
